A study of Mus musculus with 7 samples.

Results

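Pcna, Fen1, Mcm7 and Uhrf1 are genes of S phase, and their transcripts were measured in hearts of mouse embryos that had Myc or lacked it. Every array target whose identifier holds a number read as the NCBI Gene ID of 1 of these 4 genes was taken. This gave 5 of the 24048 targets on the array, and 4 of 7413 named genes. The reading of that number as a Gene ID was inferred. Uhrf1 had 2 targets and the others 1 each. The arrays held 3 wild-type and 4 Myc-null samples, each the heart of embryos at stage E13.5 per the titles, although another label gives a range from E12.5 to E15.5. The labels give no strain and no further allele or treatment for either group, and do not say how or in which cells Myc was deleted, nor whether replicates were separate embryos or litters. A p-value here sets the difference against the spread among 7 samples, which may be technical in part. Although the protocols name cardiac myocyte RNA, they describe dissected hearts placed in Trizol without separating cells, so that fewer cells of a type and less RNA per cell cannot be told apart.

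The 4 genes act at the replication fork or just behind it. The product of Pcna is a ring that slides along DNA and holds the polymerases and many other proteins on it, and Fen1 is the flap endonuclease that trims the 5′ ends of Okazaki fragments while bound to that ring. Mcm7 is a subunit of the MCM ring, the motor of the helicase that unwinds DNA ahead of the polymerases. Uhrf1 recognises hemimethylated CpG sites left by replication and directs the maintenance methyltransferase Dnmt1 to them. All are transcribed mainly in dividing cells and are known E2F targets, and Myc is a transcription factor that drives cells into S phase and binds the E-box. In the fetal heart cardiomyocytes still divide, as do the other cell types of the organ.

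Promoter sequences of the 4 genes are shown because Myc and E2F act through short sites near the start of transcription. For the 4 genes RefSeq (GRCm38.p6) gave 7 promoter windows of 300 bases, each from 250 bases before to 50 bases after a start. Printed are the single window of Pcna and, for the other genes, the window that holds an E-box or an E2F-type match, 5′ to 3′ on the gene's strand, with all matches in capitals.
Pcna, chr2:132253131-132253430, minus strand: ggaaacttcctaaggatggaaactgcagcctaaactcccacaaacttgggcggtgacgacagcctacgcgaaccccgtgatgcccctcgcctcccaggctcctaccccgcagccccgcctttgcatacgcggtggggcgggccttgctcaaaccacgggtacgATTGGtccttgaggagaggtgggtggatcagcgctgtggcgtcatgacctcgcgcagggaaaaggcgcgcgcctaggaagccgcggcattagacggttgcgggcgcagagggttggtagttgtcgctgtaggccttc
Fen1, chr19:10203872-10204171, minus strand: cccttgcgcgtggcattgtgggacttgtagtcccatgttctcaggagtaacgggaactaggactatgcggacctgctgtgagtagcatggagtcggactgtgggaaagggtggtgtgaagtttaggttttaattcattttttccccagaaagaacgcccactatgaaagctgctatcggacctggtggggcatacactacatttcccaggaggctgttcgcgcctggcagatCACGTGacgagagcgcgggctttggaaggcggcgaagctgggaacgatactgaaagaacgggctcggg
Mcm7, chr5:138171834-138172133, minus strand: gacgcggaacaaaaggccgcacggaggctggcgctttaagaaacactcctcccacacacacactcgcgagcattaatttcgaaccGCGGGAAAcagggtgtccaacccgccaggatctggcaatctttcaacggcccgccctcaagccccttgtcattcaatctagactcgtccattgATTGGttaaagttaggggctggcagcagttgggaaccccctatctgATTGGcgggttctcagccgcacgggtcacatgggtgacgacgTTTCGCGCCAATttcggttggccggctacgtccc
Uhrf1, chr17:56304063-56304362, plus strand: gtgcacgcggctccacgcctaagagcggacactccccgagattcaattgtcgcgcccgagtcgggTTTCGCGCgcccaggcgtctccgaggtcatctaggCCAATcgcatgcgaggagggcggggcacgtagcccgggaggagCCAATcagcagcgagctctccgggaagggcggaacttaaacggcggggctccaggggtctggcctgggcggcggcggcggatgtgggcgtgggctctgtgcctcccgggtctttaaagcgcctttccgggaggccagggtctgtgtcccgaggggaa

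The motifs searched, on both strands, were the E-box CACGTG, the E2F-type sites TTTCCCGC, TTTCGCGC, TTTGCCGC and TTTGGCGC, and the CCAAT box CCAAT. The E-box was found in 1 of the 7 windows, that of Fen1, at bases 233 to 238. Of all 32851 promoter windows 7.15% hold it. E2F-type sites were found in 2 of the 7 windows, against 2.26% of all windows. Mcm7 had 1 at bases 86 to 93, read on the opposite strand, and 1 at bases 267 to 274. Uhrf1 had 1 at bases 66 to 73. A CCAAT box was found in 5 of the 7 windows, against 37.4% of all windows, and that of Mcm7 at bases 274 to 278 shares its first base with the E2F-type site before it. The windows of Pcna and Fen1 held none of these E2F-type letters. The matches are strings of letters, and binding was not measured.

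Each array detected between 8573 and 9678 targets, and 9441 targets detected on at least 3 arrays were tested. Myc could not be used to check the labels, since 0 of the 7 arrays detected the target that carries its name. Heart muscle was present by its markers. Of 18 cardiomyocyte genes listed 5 had a named target and 4 were tested, with Myh7, a myosin heavy chain, at 55622 ± 12827 (SD, n = 3 wild-type) and 58256 ± 13099 (SD, n = 4 Myc-null), while Ryr2 was detected on 0 arrays. The wild-type 3 array stood apart. Across targets it correlated with the others at 0.926 to 0.938, while the other arrays correlated with each other at 0.96 to 0.991, and there 838 targets were lower than their median over arrays by 1 or more on the log2 scale. The gene Mki67, a marker of dividing cells, had a signal of 57.9 on that array in 1 of its 2 targets and 950.1 or more on the others. The 18S rRNA target had a signal of 2682 on wild-type 3 and 1523 on Myc-null 2, and 702 to 914 on the other 5 arrays. Myc-null 2, the highest array for all 4 genes in the deposited signals, had 102 targets lower and 150 higher than their median by 1 or more. No other array besides wild-type 3 had over 22 in either direction. The part of these array differences in the results was not tested. Values without wild-type 3 are therefore given beside the results that rest on it. All 7 arrays lay on 1 BeadChip, wild-type at positions A to C and Myc-null at positions E to H, so a difference between chip positions cannot be told apart from one between genotypes. The number of arrays limits the precision of every comparison.

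Pcna had higher signals on all 4 Myc-null arrays than on any wild-type array, but the difference did not pass the test. The wild-type arrays 1, 2 and 3 gave normalized signals of 165, 189.7 and 166. The Myc-null arrays 1 to 4 gave 194, 279.7, 211 and 243. The groups did not overlap, but the highest wild-type and the lowest Myc-null array lay close together, and Myc-null 2 was the highest of all. The means were 173 ± 14.1 (SD, n = 3 wild-type) and 232 ± 37.7 (SD, n = 4 Myc-null), and the difference of the log2 means corresponds to a ratio of 1.33 (95% interval 1.04 to 1.69). The log2 difference was 0.41 (SE 0.15), with an unadjusted p of 0.0275 and an adjusted p of 0.764 by limma over all tested targets. By an exact 2-sided permutation test of the log2 signals over the 35 splits of the arrays p was 0.0571, where the smallest possible is 0.0286.

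Against all targets, Pcna shared its low unadjusted p and separate groups with a few percent. By limma 0% of the 9441 targets had an adjusted p under 0.05 and 5.4% had an unadjusted p under 0.05, 3.41% with a higher and 1.99% with a lower Myc-null mean. The groups did not overlap in 6.75% of targets, in 4.02% with the Myc-null side higher and in 2.72% with it lower. The share of these low p-values that lay on the higher side moved with the scaling, from 63.1% in the deposited signals to 43.2% after quantile normalization and 40.1% after median scaling of raw signals. By rank of p, Pcna was number 240 of the 9441 (2.54%), and 12.9% of targets had a larger difference in either direction. The other 3 genes showed neither a p under 0.05 nor separate groups, so 1 of the 4 tested targets met either criterion.

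The size of the Pcna difference depended on scaling and on background. In raw signals, before any normalization, Pcna ranged from 264.8 to 314 on the wild-type arrays and from 269 to 391 on the Myc-null arrays, and the groups overlapped (exact permutation p = 0.371). The deposited signals are the raw ones multiplied by a factor for each array, from 0.809 for wild-type 3 to 1.43 for Myc-null 4, after an offset. After quantile normalization or median scaling of raw signals, which keep the background, the log2 difference was 0.21 in each case (limma adjusted p = 0.706 and 0.743). With normexp background correction and quantile normalization of raw signals it was 0.29 (unadjusted p = 0.103, adjusted p = 0.754 by limma). Rescaling the deposited signals, an alternative added after the data were seen, gave 0.32 by quantiles and 0.33 by medians. The groups stayed apart in 5 of the 6 scalings and overlapped after median scaling of raw signals. Leaving out single arrays gave differences from 0.32 without Myc-null 2 to 0.49 without Myc-null 1, and without wild-type 3 it was 0.38 (unadjusted p = 0.0701, adjusted p = 0.931 by limma).

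Fen1 had no difference larger than the spread between arrays. Its normalized signals were 881, 924 and 847 on wild-type arrays 1, 2 and 3. On Myc-null arrays 1 to 4 they were 625, 926, 846 and 800.2. Myc-null 1 was the lowest of the 7 arrays and Myc-null 2 the highest, so the groups overlapped. The means were 884 ± 38.7 (SD, n = 3 wild-type) and 799 ± 128 (SD, n = 4 Myc-null). The log2 difference was -0.16 (SE 0.15, 95% interval -0.51 to 0.19), with a limma adjusted p of 0.794 and an exact permutation p of 0.4. Without Myc-null 1 it was -0.05, and without wild-type 3 it was -0.19. With array quality weights it was -0.29, and with median scaling of the deposited signals -0.24.

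Mcm7 varied least of the 4 genes. It measured 991, 1111 and 1150.1 on wild-type arrays 1, 2 and 3. On Myc-null arrays 1 to 4 it measured 1038, 1236, 1126 and 1116. The groups lay in the same range, with the lowest array wild-type and the highest Myc-null. The means were 1084 ± 83.1 (SD, n = 3 wild-type) and 1129 ± 81.4 (SD, n = 4 Myc-null), and the log2 difference was 0.06 (SE 0.10; limma adjusted p = 0.889). The 95% interval ran from -0.18 to 0.30, which on the linear scale is a change of -11.8% to 23.0%. Over the 7 arrays the log2 signal had an SD of 0.10, and 6.33% of tested targets had a smaller one. The sign of so small a difference was not fixed, being 0.10 without wild-type 3, -0.0043 without wild-type 1 and negative after median scaling of either the raw or the deposited signals.

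Uhrf1 was measured by 1 of its 2 targets. That target gave normalized signals of 2187, 2214 and 2866 on wild-type arrays 1, 2 and 3. On Myc-null arrays 1 to 4 it gave 2337, 3092, 2509.9 and 2905. Wild-type 3 lay among the higher Myc-null arrays, and the other wild-type arrays lay below all 4 Myc-null arrays. The means were 2423 ± 385 (SD, n = 3 wild-type) and 2711 ± 348 (SD, n = 4 Myc-null), with a log2 difference of 0.16 (SE 0.15, 95% interval -0.19 to 0.52; limma adjusted p = 0.794; exact permutation p = 0.314). Without wild-type 3, the array that stood apart, the log2 difference was 0.29 (unadjusted p = 0.0792, adjusted p = 0.931 by limma). After median scaling of the deposited signals it was 0.09.

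The other Uhrf1 target was detected on 0 of the 7 arrays. Its detection score, which equals 1 minus the detection p-value, lay between 0.241 and 0.935, under the required 0.99. Its normalized signals ran from -14.2 on Myc-null 4 to 21.7 on Myc-null 1, all below the floor of 58.2 used for the tests. It has only a bound, so no fold is given (exact permutation p = 0.857 for the signals). The files do not say which part of the gene either target matches.

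**Figure D1:**
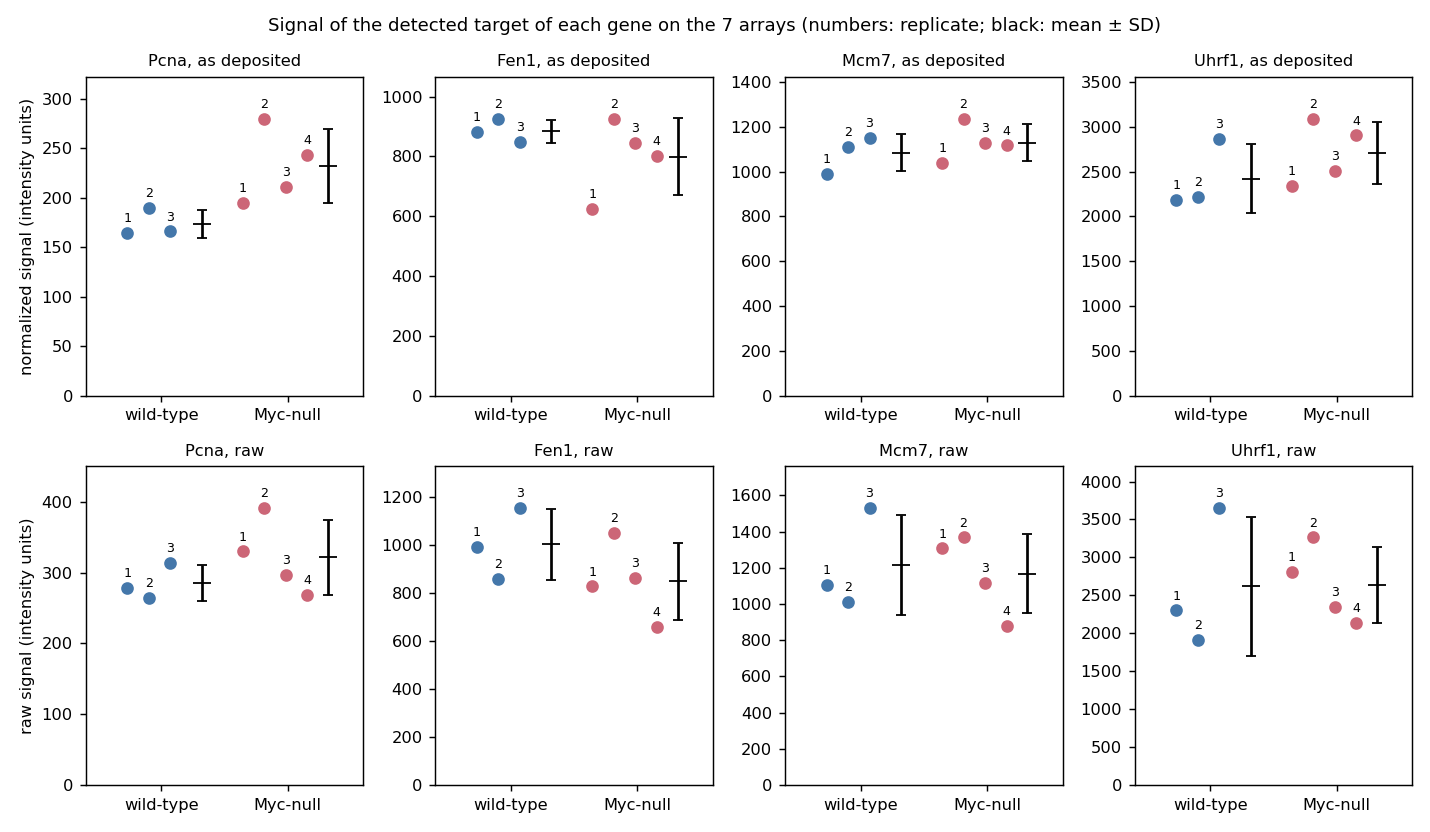
Signal (intensity units, axes from 0) of the detected target of each gene on every array, as deposited in the upper row and raw in the lower row, with replicate numbers at the points and mean ± SD in black (n = 3 wild-type, n = 4 Myc-null). Pcna groups are separate as deposited (highest wild-type 189.7, lowest Myc-null 194) and overlap in the raw signals, and the groups of the other 3 genes overlap in both rows.

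For the 4 detected targets the bead SD named in the file headers was between 2.54% and 6.42% of the raw signal, over 34 to 58 beads a target. The highest normalized signal was 1.7 times the lowest for Pcna, 1.48 times for Fen1, 1.41 times for Uhrf1 and 1.25 times for Mcm7.

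Pcna, Mcm7 and Uhrf1 varied together over the arrays more than any of them did with Fen1. Pearson correlations of log2 signals over the 7 arrays, which share the array scaling, were 0.81 for Mcm7 with Uhrf1, 0.67 for Pcna with Mcm7 and 0.65 for Pcna with Uhrf1. Without wild-type 3, which was high for Uhrf1 and low for Pcna, the correlation of Pcna with Uhrf1 was 0.97 over 6 arrays, that of Pcna with Mcm7 0.90 and that of Mcm7 with Uhrf1 0.80. Fen1 had correlations of 0.11 with Pcna, 0.43 with Mcm7 and 0.16 with Uhrf1. These are descriptions over few points. The log2 ratio of Pcna to Fen1 was -2.35 ± 0.07 (SD, n = 3 wild-type) and -1.78 ± 0.15 (SD, n = 4 Myc-null). In such a ratio a common factor of an array cancels, but its offset does not. The ratio of Pcna to Fen1 shifted by 0.57, and the groups did not overlap. The ratio of Pcna to Mcm7 shifted by 0.35, from -2.64 ± 0.13 to -2.29 ± 0.14, also without overlap in the deposited signals. In raw signals this ratio was higher on wild-type 2 (264.8 to 1012) than on Myc-null 1 (330 to 1307.2), so there the groups overlapped. The raw ratio of Pcna to Fen1 stayed apart. Its highest wild-type array was wild-type 2 (264.8 to 860.7), still below its lowest Myc-null array, Myc-null 3 (296.9 to 864.2). The groups overlapped in the deposited ratios of the other 4 of the 6 pairs. Both separate ratios hold Pcna, whose own deposited signals did not overlap, so they are not independent of that result. The share of separate ratios over pairs of all targets was not computed. Since the genes were chosen with earlier results known, these ratios carry no test.

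**Figure D2:**
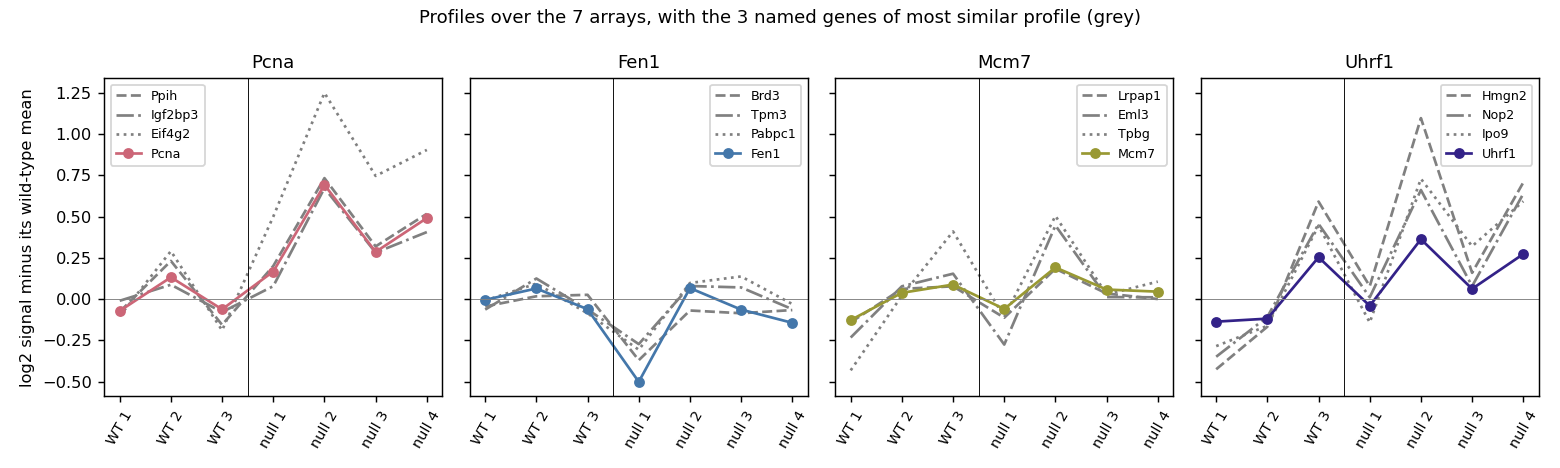
Log2 signal minus its wild-type mean (vertical axis) on the 7 arrays (horizontal axis, WT for wild-type and null for Myc-null) for each gene in colour, with the 3 named genes of most similar profile in grey. Pcna and Uhrf1 peak on Myc-null 2, Fen1 dips on Myc-null 1, and Mcm7 stays nearly flat.

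Genes with the most similar profiles were sought among 3136 named targets detected on all arrays, by Pearson correlation over the 7 arrays. For Pcna they were Ppih, a spliceosomal peptidyl-prolyl isomerase (0.986), Igf2bp3, an mRNA-binding protein of fetal tissues (0.984), and Eif4g2, a translation initiation factor (0.978). Their own log2 differences were 0.44, 0.36 and 0.85, each with a limma adjusted p of 0.764. The signal of Eif4g2 was 54.6 on wild-type 3, under the floor, and 61.7 on wild-type 1, so its difference is set in part by the floor. For Fen1 they were the bromodomain protein gene Brd3 (0.904), the tropomyosin gene Tpm3 (0.899) and the poly(A)-binding protein gene Pabpc1 (0.886). For Mcm7 they were Lrpap1, Eml3 and Tpbg (0.976, 0.955 and 0.948). For Uhrf1 they were Hmgn2, a nucleosome-binding protein gene (0.979), Nop2, a ribosomal RNA methyltransferase gene (0.976), and the importin gene Ipo9 (0.975). The correlations without wild-type 3 lay between 0.916 and 0.993, but the genes were picked by correlations that include those same arrays. High values there, and the shared direction of the genes most like Pcna, thus follow in part from the choice. All arrays share their scaling with every gene on them, so these values describe likeness only.

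Other genes of the replication machinery were listed by role, 90 in all, of which 32 had a named target and 24 genes had 30 tested targets. By limma 0 of the 30 passed over all tested targets, and 0 had an unadjusted p under 0.05. That count was 2 without wild-type 3, 2 without wild-type 2 and 2 without wild-type 3 and Myc-null 2 together. With array quality weights it was 3, and under the other alternatives it was 0 or 1. Over all tested targets the counts at these 4 settings were 374, 746, 384 and 731 of 9441, in that order. Means were higher in Myc-null hearts for 19 and lower for 10, and 1 lay at the floor on all arrays. Over all tested targets 54.4% had higher and 44.8% lower means. The median log2 difference was 0.09 for these 30 targets and 0.03 for all. Without wild-type 3 the counts were 14 higher and 15 lower and the median was -0.0067, against 53.5% higher over all targets. With median scaling of the deposited signals 16 were higher and 13 lower, against 43.6% higher over all targets, and the medians were 0.02 for the list and -0.03 for all. The groups did not overlap for 3 targets with the Myc-null side higher, which were Rpa3, Rnaseh2b and the dimmer target of Mcmbp, and for 1 with it lower, which was Ung, against 4.02% and 2.72% of all tested targets.

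Among genes that load or bind the MCM helicase, 5 of 6 tested targets had higher Myc-null means, 3 of 6 without wild-type 3 and 6 of 6 without Myc-null 2. Mcmbp, which binds MCM complexes, had 2 targets that disagreed. The dimmer one measured 286 ± 102 (SD, n = 3 wild-type) and 380.0 ± 13.2 (SD, n = 4 Myc-null), a log2 difference of 0.48, and the brighter one 1043 ± 107 and 1036 ± 151, a difference of -0.02. The dimmer one was at 0.14 without wild-type 3, and the brighter one ran from -0.11 without Myc-null 4 to 0.04 without wild-type 1. Orc3, a subunit of the origin recognition complex, had means of 58.4 ± 41.9 (SD, n = 3 wild-type) and 82.7 ± 11.3 (SD, n = 4 Myc-null), but 2 wild-type arrays lay under the floor, so its difference is set in part by the floor and is not given.

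Of clamp loaders, which open the Pcna ring and place it on DNA, 4 targets were tested. Rfc3 differed by 0.34 and Rfc5 by -0.08, subunits of the same loader, and without wild-type 3 by 0.11 and -0.03. The brighter target of Chtf8, a subunit of an alternative loader, differed by 0.09 and ran from -0.03 without wild-type 2 to 0.32 without wild-type 3. Of polymerase subunits, 2 of 3 had higher means, and 3 of 3 without wild-type 3. Pole3 and Pole4, histone-fold subunits of polymerase epsilon, differed by 0.56 and 0.17, and Pole3 by 0.09 without wild-type 3.

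Of the Okazaki fragment and single-strand binding genes, the set to which Fen1 belongs by function, 3 were tested and 2 had higher means. Rpa3, the small subunit of replication protein A, measured 1002, 979.7 and 847 on wild-type arrays 1, 2 and 3. On Myc-null arrays 1 to 4 it measured 1067, 1252, 1013 and 1539.9. All 4 Myc-null arrays lay above the wild-type ones, with a log2 difference of 0.35 (SE 0.17; limma adjusted p = 0.764), and 0.23 without Myc-null 4. Rnaseh2b, a subunit of ribonuclease H2, differed by 0.63, and by 0.14 without wild-type 3, where its signal was 292.3 against 812 or more elsewhere.

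Of partners of Pcna in chromatin assembly and repair, 3 of 7 tested targets had higher means, 1 of 7 without wild-type 3 and 4 of 7 without Myc-null 2. Ung, the uracil glycosylase that removes uracil from new DNA, had lower signals on all 4 Myc-null arrays than on the wild-type arrays, with means of 152 ± 13.1 (SD, n = 3) and 128 ± 8.50 (SD, n = 4). Its log2 difference was -0.24 (SE 0.10; unadjusted p = 0.0512, limma adjusted p = 0.764), and leaving out single arrays gave -0.30 to -0.18. Msh6, a mismatch repair protein gene, differed by 0.42, and by 0.16 without wild-type 3. Paf1, which was on this list although it acts in transcription elongation, differed by 0.07, and by -0.03 without wild-type 3.

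Of the maintenance methylation genes around Uhrf1, 3 of 4 tested targets had higher means, and 2 of 4 without wild-type 3 or without Myc-null 2. The brighter target of Uhrf2, the paralog of Uhrf1, measured 1743 ± 194 (SD, n = 3 wild-type) and 2044 ± 218 (SD, n = 4 Myc-null), a log2 difference of 0.23. Cdca7, which works with the remodeler Hells, differed by 0.05, and by -0.12 without Myc-null 2. Tet2, a 5-methylcytosine oxidase gene, had signals of 84.4, 91.2 and 25.7 on wild-type arrays 1, 2 and 3 and of 37.8 to 73.9 on the Myc-null arrays, with 1 wild-type and 3 Myc-null arrays under the floor, so no difference is given. Hells was detected on 0 arrays and Dnmt1 had no target that could be named. Of nucleotide supply genes, 2 of 3 tested targets had higher means, and 1 of 3 without wild-type 3. Rrm2, a subunit of ribonucleotide reductase, differed by 0.19 in its brighter target and the thymidine kinase gene Tk1 by -0.10, and without wild-type 3 by 0.09 and -0.01.

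**Figure D3:**
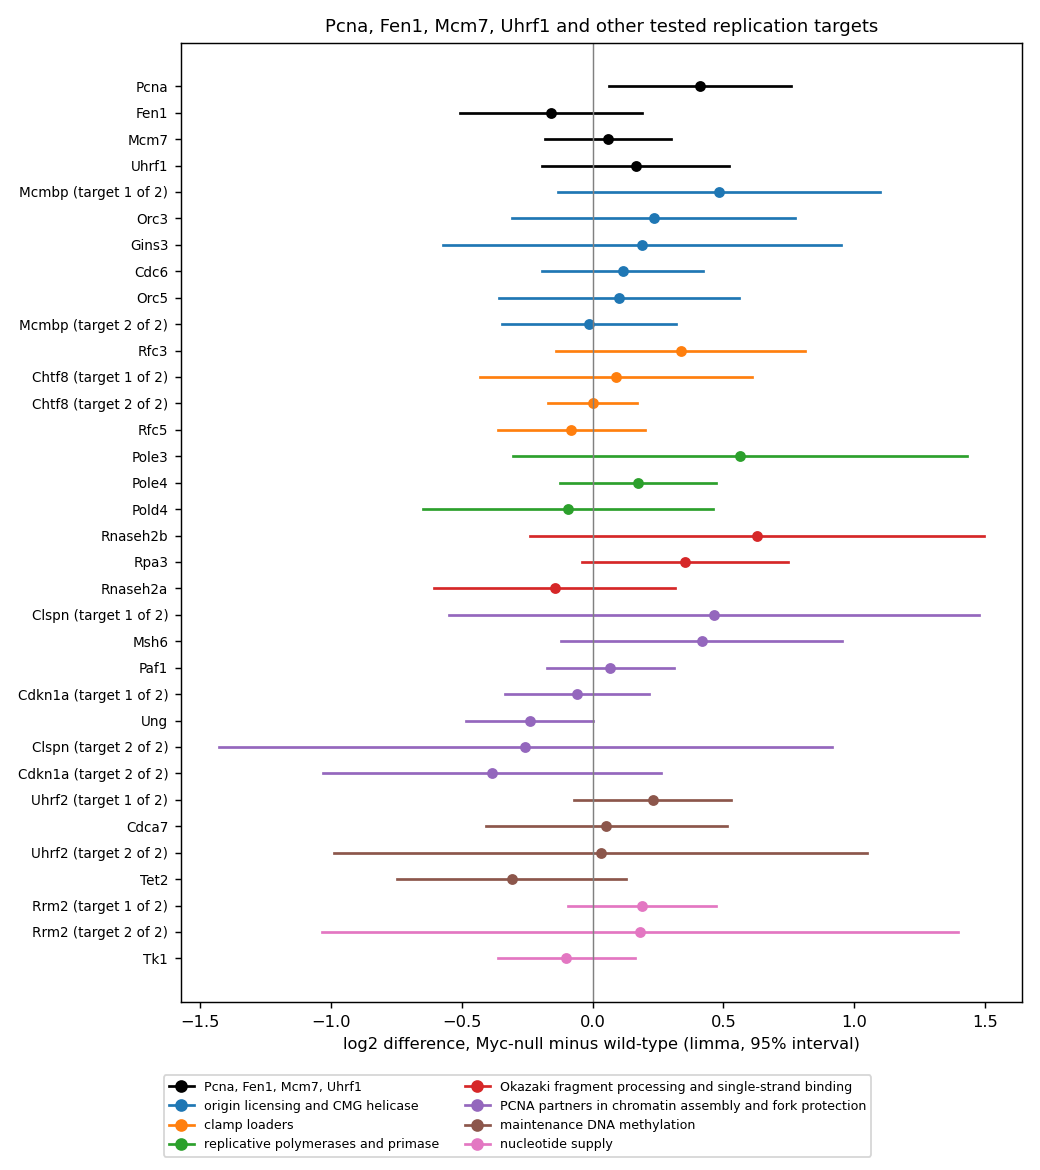
Log2 difference between Myc-null and wild-type hearts (horizontal axis, points) with its 95% interval from limma (lines) for the detected targets of Pcna, Fen1, Mcm7 and Uhrf1 in black and the 30 tested targets of other replication genes coloured by role. All intervals but that of Pcna reach 0, and none of these targets had an adjusted p under 0.05. Those of Orc3, Tet2 and the dimmer target of Chtf8 are set in part or wholly by the floor.

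Signals of other cell types differed between arrays beside these results. The 5 named red blood cell genes of 15 listed, all tested and none at 0, summed to between 77480 and 92921 on the wild-type arrays and to between 84731 and 122152 on the Myc-null arrays. The Myc-null mean was higher for all 5, and their median log2 difference of 0.37 was 0.12 without Myc-null 2 and 0.42 without wild-type 3, where 4 were higher. Hba-a1, an alpha globin gene and the brightest, had means of 60432 ± 8292 (SD, n = 3 wild-type) and 62115 ± 5687 (SD, n = 4 Myc-null). The highest sum was on Myc-null 2, which also had the highest Pcna, Mcm7, Fen1 and Uhrf1 signals as deposited. In raw signals Pcna was highest there too, at 391.4. Raw Fen1, Mcm7 and Uhrf1 were instead highest on wild-type 3, at 1155.9, 1530 and 3650.7. Of 11 cartilage genes 4 had a named target and 3 were tested, and they summed to 348 to 721 in wild-type and 310.4 to 2494 in Myc-null hearts, again highest on Myc-null 2, with Col11a1 detected on 0 arrays. Their median log2 difference was 0.45, which was -0.21 without Myc-null 2 and 0.78 without wild-type 3. The brightest was the collagen gene Col2a1, at 1698 on Myc-null 2 and 93.7 to 381 on the other arrays. The 10 tested targets of 6 proliferation marker genes, of 13 listed, summed to 9035 to 11966 in wild-type and 10640 to 11754 in Myc-null hearts, lowest on wild-type 3, with Bub1 detected on 0 arrays. Their median log2 difference was 0.01, with 5 higher and 5 lower means, and without wild-type 3 it was -0.09, with 2 higher and 8 lower. The brightest was Birc5, the survivin gene, at 1925 ± 503 (SD, n = 3 wild-type) and 2190.0 ± 134 (SD, n = 4 Myc-null) in its brightest target. That target had a log2 difference of 0.22, which was -0.02 without wild-type 3. The other Birc5 targets differed by 0.15 and -0.08, and by -0.04 and -0.17 without wild-type 3. The part of these cells in the differences was not tested. Without both wild-type 3 and Myc-null 2 the log2 differences were 0.28 for Pcna, -0.27 for Fen1, 0.06 for Mcm7 and 0.23 for Uhrf1, with a limma adjusted p of 0.977 for Pcna, Fen1 and Uhrf1 and 0.982 for Mcm7.

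For the remaining marker lists, the brightest tested genes were Emcn among 6 endothelial, Upk3b among 6 epicardial, Eln among 7 mesenchymal and Lyz2 among 4 leukocyte genes, and Acta2 was the only smooth muscle gene tested. Epicardial genes had a median log2 difference of -0.36, endothelial genes of -0.13, leukocyte genes of -0.08 and mesenchymal genes of -0.0033. In that order, targets with higher and lower Myc-null means numbered 2 and 4, 2 and 4, 1 and 3, and 4 and 4. Emcn differed by 0.72, opposite to the endothelial median, and by 0.09 without wild-type 3. Without wild-type 3 the 4 medians were -0.17, -0.01, 0.24 and 0.05, so the leukocyte and mesenchymal medians changed sign. Without Myc-null 2 the medians were -0.53, -0.13, -0.16 and -0.02. Of the leukocyte genes C1qb, Csf1r and Fcgr3 lay under the floor on 3 or more arrays. Acta2 differed by -0.16, by -0.33 without wild-type 3 and by -0.0052 without wild-type 1. Ptprc and Cd68 among leukocyte genes, Postn among mesenchymal genes and Cnn1 among smooth muscle genes were detected on 0 arrays. By limma 0 targets of these lists passed.

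The authors' deposited table gives Pcna a difference score of 17.1, past the 13 that BeadStudio commonly equates with a p-value of 0.05. The table does not name its direction, but the 335 tested targets scored at 13 or more were all higher in the Myc-null mean, and the 98 scored at -13 or less all lower. Of tested targets 3.55% had a score of 13 or more in the authors' deposited table and 1.04% one of -13 or less. Uhrf1 scored 9.00 there, Mcm7 3.15, Fen1 -3.61 and the undetected Uhrf1 target -0.34 in the authors' deposited table.

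**Figure D4:**
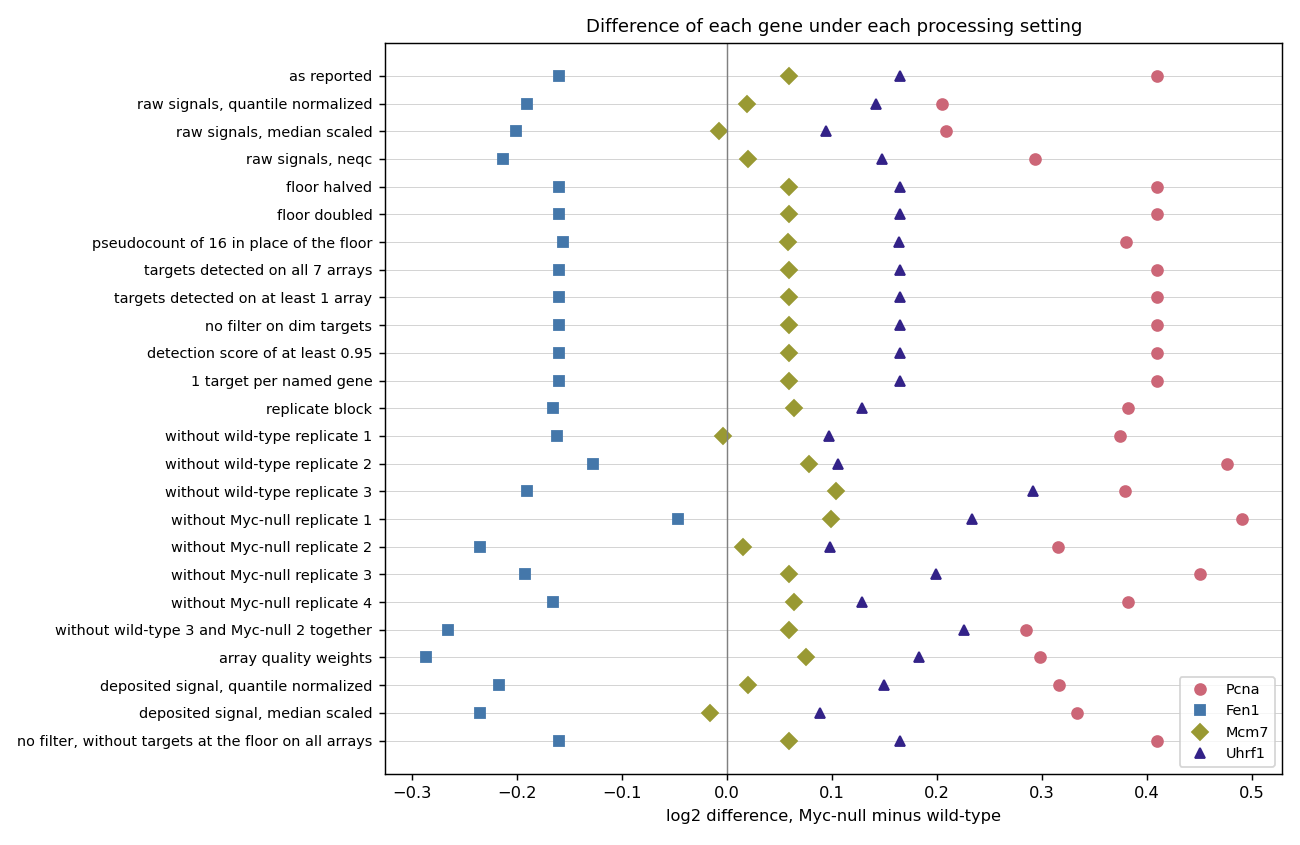
Log2 difference between Myc-null and wild-type hearts (horizontal axis) of the detected target of each gene under every processing setting (vertical axis). Pcna stays between 0.21 and 0.49, Uhrf1 between 0.09 and 0.29 and Fen1 between -0.29 and -0.05, while Mcm7 crosses 0.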

How the data were processed

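Total RNA (100 ng) of 7 samples was amplified, labelled with biotin and read on Illumina MouseRef-8 BeadChips, per the labels' protocols. The deposited raw signal is a mean bead intensity for each target, with a bead SD as an intensity, a detection score as a fraction and a bead number (other), made without normalization in BeadStudio 1.5.1.3 per the file headers. The authors also deposited a normalized intensity and a difference score for each target, and per the submitters' processing notes BeadStudio 1.5.0.34 was used. On each array the deposited normalized signal was a straight-line function of the raw one, with a largest deviation of 0.113. The way the difference score was computed is not stated there.

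Targets were named where the identifier holds 1 or 2 zeros and a number found as an NCBI Gene ID in the RefSeq gene table. This matched 8884 of 9523 such targets, and 9 more were named by RefSeq accession. That the number is a Gene ID was inferred, since the submitters do not state it. Of 24048 targets 4 bacterial controls were left out, and 9441 with a detection score of at least 0.99 on at least 3 arrays were tested. Normalized signals under a floor of 58.2, taken as the 5th percentile of detected signals on an array at its median over the 7 arrays, were set to it and the groups were tested on log2 values by lmFit and eBayes of limma 3.58.1 (R 4.3.3), with Benjamini-Hochberg adjustment over all tested targets, a threshold of 0.05 and 95% intervals. The code was tested on simulated data. Single values were compared by an exact 2-sided permutation test in Python 3.11.15.

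The genes, the gene lists and the tests were chosen with earlier results of these data known. From each list of replication genes the 2 brightest tested targets and the 2 of smallest p are named, from each marker list the brightest gene, for each gene the 3 most similar profiles, and Mki67. Genes named because no array detected them were chosen after their values were seen. The alternatives covered the scaling and background, the floor, the filter, a replicate block, array weights and leaving out arrays. A label describing much earlier embryos disagrees with the titles and was not used.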

Additional observations from a re-analysis of the deposited data

Results flagged for a closer look

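Within the 4 Myc-null arrays, 7 of 64 values looked at had 1 array standing apart from the other 3, where chance sets apart about 1 in 20. The values are not independent, since Col9a1 is part of the cartilage sum, and Tet2 stands apart by construction because its other arrays were set to the floor. Among replication genes, Cdca7 had a log2 signal of 10.44 on Myc-null 2 against 9.73 to 9.81 on the others. Tet2 had 6.21 on Myc-null 3, and the others were at the floor of 5.86. Ratios between the genes were also set apart. The log2 ratio of Pcna to Fen1 was -2.003 on Myc-null 3 against -1.73 to -1.68, and that of Pcna to Uhrf1 was -3.47 on Myc-null 2 against -3.59 to -3.57. Markers of other cells stood apart on Myc-null 2. Col9a1, a cartilage collagen gene, had a log2 signal of 9.20 there against 6.36 to 6.73, and the summed cartilage signal was 2494 against 310.4 to 573. Csf1r, a macrophage receptor gene, had a log2 signal of 6.75 against 5.86 to 5.97. Of those other Myc-null arrays 2 were set to the floor, so Csf1r stands apart in part by construction.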

How the results depend on the processing

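The differences of the 4 detected targets, both counts over all targets and the median of the replication lists were recomputed under 24 alternatives, of which 3 were added after the data were seen. Ratios between genes, correlations and promoter matches were not, and marker lists were recomputed leaving out wild-type 3 or Myc-null 2. The differences of Pcna, Fen1 and Uhrf1 kept their sign and stayed short of the adjusted threshold under all 24. A halved or doubled floor, or another choice of tested targets, could not change the differences of the 4 targets. Their signals lay above each floor and passed each filter, so these alternatives repeated 0.41, -0.16, 0.06 and 0.16. A kept sign there carries no information, and only the p-values could move. The limma adjusted p for Pcna ranged from 0.387 to 0.977, and its unadjusted p was under 0.05 in 16, which include all those repeats. Mcm7 kept its sign under 21 and reversed to -0.0081 with raw signals scaled to equal medians, to -0.017 with deposited signals scaled to equal medians and to -0.0043 without wild-type 1; the cause was not tested. Leaving out single arrays gave 0.32 to 0.49 for Pcna, -0.24 to -0.05 for Fen1, -0.0043 to 0.10 for Mcm7 and 0.10 to 0.29 for Uhrf1. By limma 0 targets were called under all 24 alternatives, against 510 at an unadjusted p under 0.05, a number that ran from 327 without Myc-null 2 to 746 without wild-type 2. The median log2 difference of the replication lists ran from -0.0067 without wild-type 3 to 0.17 without wild-type 1, and was -0.017 without wild-type 3 and Myc-null 2 together and -0.0038 with array quality weights. Whether the same replicate number pairs samples is not known. Deviations of same-numbered arrays correlated at 0.175, -0.26 and -0.318, and so few pairs cannot settle it. With the number as a replicate block the differences were 0.38 for Pcna, -0.17 for Fen1, 0.06 for Mcm7 and 0.13 for Uhrf1. By limma 386 targets then had an unadjusted p under 0.05 and 0 were called, and the list median was 0.10. Low signal limits the second Uhrf1 target and Myc, which had no array above background.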
